A study of Rattus norvegicus with 25 samples.

Results

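The genes described here are the chondroitin sulfate proteoglycans of the brain and their partners in perineuronal nets: Acan, Bcan, Ncan, Vcan, Cspg5, Ptprz1, Hapln1, Hapln4, Tnc and Tnr. They were taken by symbol from the gene count table, where all 10 were found among 34322 genes, and all 10 passed the filter on low counts that left 21064 genes for testing. The libraries came from the hippocampus of male Sprague-Dawley rats, adult and 6 to 7 weeks old, in 5 groups of 5. TNF-CCI, TCF-CCI and TD-CCI rats had a controlled cortical impact (CCI), a contusion made by a piston on the exposed cortex, and a thymus supplement (thymus nuclear factor, thymus cytosolic factor and thymus, in that order), with the nuclear extract bovine per the series title. Vehicle-CCI rats had the impact with vehicle, and Vehicle-sham rats had a sham operation with vehicle. TNF here names the thymus supplement and not the cytokine. The labels give no genetic modification, dose or time after injury, and do not state that the 25 libraries are 25 animals, so a p-value speaks only for the variation among libraries.

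Chondroitin sulfate proteoglycans are core proteins that carry sulfated sugar chains. The lecticans (aggrecan, brevican, neurocan and versican) bind the long sugar hyaluronan at one end and tenascins at the other, and link proteins lock the lectican to the hyaluronan. In the hippocampus this lattice condenses into perineuronal nets, mainly around parvalbumin interneurons, and after injury reactive glia add a looser matrix of the same components that limits axon growth.

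Between 27.3 and 44.9 M counts (M for mega) were assigned per library, with a median of 32.8 M, and the scarcest gene, Acan, had 55 to 247 counts per library. Levels are given as CPM, counts per M counts after TMM scaling, a correction for differences in library composition. Vehicle-sham 2 and Vehicle-sham 3 stood apart, with 25.6% and 17.3% of counts on mitochondrial ribosomal RNA against 2.18 to 10.9% in the other 23 libraries. Vehicle-sham 2 was the lowest of all 25 libraries for Bcan, Ncan, Vcan, Tnc and Tnr and the highest for Ptprz1 and Hapln1. TNF-CCI 1 stood apart in reactive astrocyte markers, with 8353 CPM summed over 7 of them against 2209 to 6304 CPM in the other TNF-CCI libraries and at most 3776 CPM in Vehicle-CCI. TD-CCI 4, the highest library for Acan and Bcan, had the highest sum of 7 thalamic markers, 394 CPM, against at most 224 CPM in any other library. All 9 markers of hippocampal neurons were detected, in every group.

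The promoters of 8 of the 10 genes were matched in the RefSeq table for build GRCr8, and 3 are printed: Tnc, the member that passed the test, and Ncan and Hapln4, a lectican and a link protein that lie side by side. Each run covers 250 bases before to 50 bases after the annotated start, 5′ to 3′ on the strand of the gene, and capitals mark the motifs found.
Tnc promoter, chr5:82476082-82476381, minus strand: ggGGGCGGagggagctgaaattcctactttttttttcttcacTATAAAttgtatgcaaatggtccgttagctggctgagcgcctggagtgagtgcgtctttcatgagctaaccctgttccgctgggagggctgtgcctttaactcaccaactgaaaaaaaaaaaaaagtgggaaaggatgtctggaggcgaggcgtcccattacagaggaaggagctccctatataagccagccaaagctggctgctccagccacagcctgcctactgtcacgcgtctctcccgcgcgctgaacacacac
Ncan promoter, chr16:19335657-19335956, plus strand: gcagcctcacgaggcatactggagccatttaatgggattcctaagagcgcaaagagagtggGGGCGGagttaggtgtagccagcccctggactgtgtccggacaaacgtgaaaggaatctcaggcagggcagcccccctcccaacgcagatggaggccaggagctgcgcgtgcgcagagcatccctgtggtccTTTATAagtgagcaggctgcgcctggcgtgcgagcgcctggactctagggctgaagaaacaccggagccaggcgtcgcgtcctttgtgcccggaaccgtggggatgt
Hapln4 promoter, chr16:19375124-19375423, minus strand: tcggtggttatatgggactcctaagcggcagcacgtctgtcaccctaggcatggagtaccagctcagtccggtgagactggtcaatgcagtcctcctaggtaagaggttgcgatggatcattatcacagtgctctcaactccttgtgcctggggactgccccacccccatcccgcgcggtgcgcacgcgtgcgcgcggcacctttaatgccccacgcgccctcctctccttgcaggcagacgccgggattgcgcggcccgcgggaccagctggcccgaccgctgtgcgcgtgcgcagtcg
The motifs searched, on both strands, were the TATA box (TATAAA), the AP-1 site (TGANTCA) and the GC box (GGGCGG). Over all 27457 promoters of the table, 14.3% held the TATA box, 7.33% the AP-1 site and 34.9% the GC box. The Tnc promoter held 1 match to the TATA box letters, from base 43 of the printed run (-208 from the annotated start), and 1 GC box, from base 3. Nearer the start it also holds tatataag, which is not the searched TATAAA and is not marked. The Ncan promoter held 1 match to the TATA box letters, on the opposite strand from base 194 (-57 from the annotated start), and 1 GC box from base 62. The Hapln4 promoter held none of these letters but had 28 CpG dinucleotides, against 12 in Tnc and a median of 7 over all promoters. A match describes the letters and not a bound site.

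With all 25 libraries in the fit, Tnc, the gene of tenascin-C, was the 1 member called, higher in TNF-CCI and in the averaged CCI groups. TNF-CCI differs from Vehicle-sham in both impact and supplement, and the average takes in the supplemented groups. No sham group had a supplement, so the parts of impact and supplement cannot be told apart in these 2 comparisons. The impact with vehicle alone gave no call. Tnc encodes a matrix glycoprotein of the developing brain that is made again by astrocytes at lesions, and it lies at chr5:77375851-77460712 on the minus strand (build mRatBN7.2), with no overlapping gene. It had 63.2, 35.7, 40.6, 29.0 and 40.6 CPM in TNF-CCI 1 to 5, 35.9, 32.1, 52.1, 28.5 and 29.2 CPM in TCF-CCI, 37.1, 33.9, 48.0, 27.9 and 26.9 CPM in TD-CCI, 44.1, 42.5, 22.9, 20.3 and 27.9 CPM in Vehicle-CCI, and 20.6, 11.1, 20.9, 18.6 and 25.8 CPM in Vehicle-sham. All 15 libraries of the supplemented groups lay above every sham library, while 2 of the 5 Vehicle-CCI libraries lay within the sham range. The group means were 41.8 ± 12.9, 35.6 ± 9.71, 34.8 ± 8.53 and 31.5 ± 11.1 CPM in TNF-CCI, TCF-CCI, TD-CCI and Vehicle-CCI, against 19.4 ± 5.35 CPM in Vehicle-sham (SD, n = 5 each). Tnc rose in TNF-CCI over Vehicle-sham by 1.11 ± 0.25 (SE) on the log2 scale, the scale of every difference given without a unit, which is a 2.15-fold difference, with an adjusted p of 0.0245 by edgeR's quasi-likelihood test (Benjamini-Hochberg over all tested genes). It was 1 of 10 members called there, where 2.57% of all tested genes were called in either direction and 1.71% were called higher, and 1 of 10 without overlap between the groups, where the share of all genes was 3.51%. Averaged over the 4 CCI groups, Tnc rose over Vehicle-sham by 0.88 ± 0.21, with an adjusted p of 0.0246 and 18 of 20 libraries above every sham library. It was again the 1 member called, where 5.92% of all tested genes were called and 2.24% were called higher. No member was without overlap in that comparison, where the share of all genes was 0.0807%. In bulk tissue fewer cells of a type and less RNA per cell cannot be told apart, for Tnc as for every gene described here.

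The Tnc differences of the other CCI groups did not pass the edgeR threshold. They were 0.87 ± 0.25 in TCF-CCI (adjusted p = 0.157), 0.84 ± 0.25 in TD-CCI (adjusted p = 0.165) and 0.70 ± 0.25 in Vehicle-CCI (adjusted p = 0.248), all over Vehicle-sham by edgeR. In these comparisons edgeR called 0.0142%, 0% and 0% of all genes and 0 members. At an unadjusted p under 0.05 it had 3 members in TCF-CCI (Tnc, Hapln4 and Hapln1), 2 in TD-CCI (Tnc and Hapln1) and 1 in Vehicle-CCI (Tnc), beside 18.0%, 16.5% and 12.7% of all genes, while DESeq2 called 1, 0 and 0 members. Tnc was without overlap in TCF-CCI and TD-CCI, as were 3.55% and 3.23% of all genes, and no member was in Vehicle-CCI, as were 0.783% of all genes. In the authors' deposited tables, which set each CCI group against the control, Tnc had log2 fold changes of 1.11 in TNF-CCI, 0.88 in TCF-CCI, 0.84 in TD-CCI and 0.71 in Vehicle-CCI, with adjusted p-values of 0.00199, 0.0231, 0.0214 and 0.356.

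Leaving out 1 library at a time kept the Tnc difference between 0.91 and 1.23 in TNF-CCI and between 0.76 and 1.00 in the mean of the 4 CCI groups, but ended some calls. Without Vehicle-sham 2 the mean was 0.76 with an adjusted p of 0.088 (edgeR). Without Vehicle-sham 2 and 3 the values were 0.96 in TNF-CCI (adjusted p = 0.114) and 0.74 in the mean (adjusted p = 0.163). The TNF-CCI call was also lost without TNF-CCI 1 (0.91, adjusted p = 0.0944), without TNF-CCI 5 (adjusted p = 0.0618) and without Vehicle-sham 4 (adjusted p = 0.0613). With a covariate for mitochondrial rRNA the adjusted p was 0.0986 in TNF-CCI and 0.0788 in the mean.

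**Figure D1:**
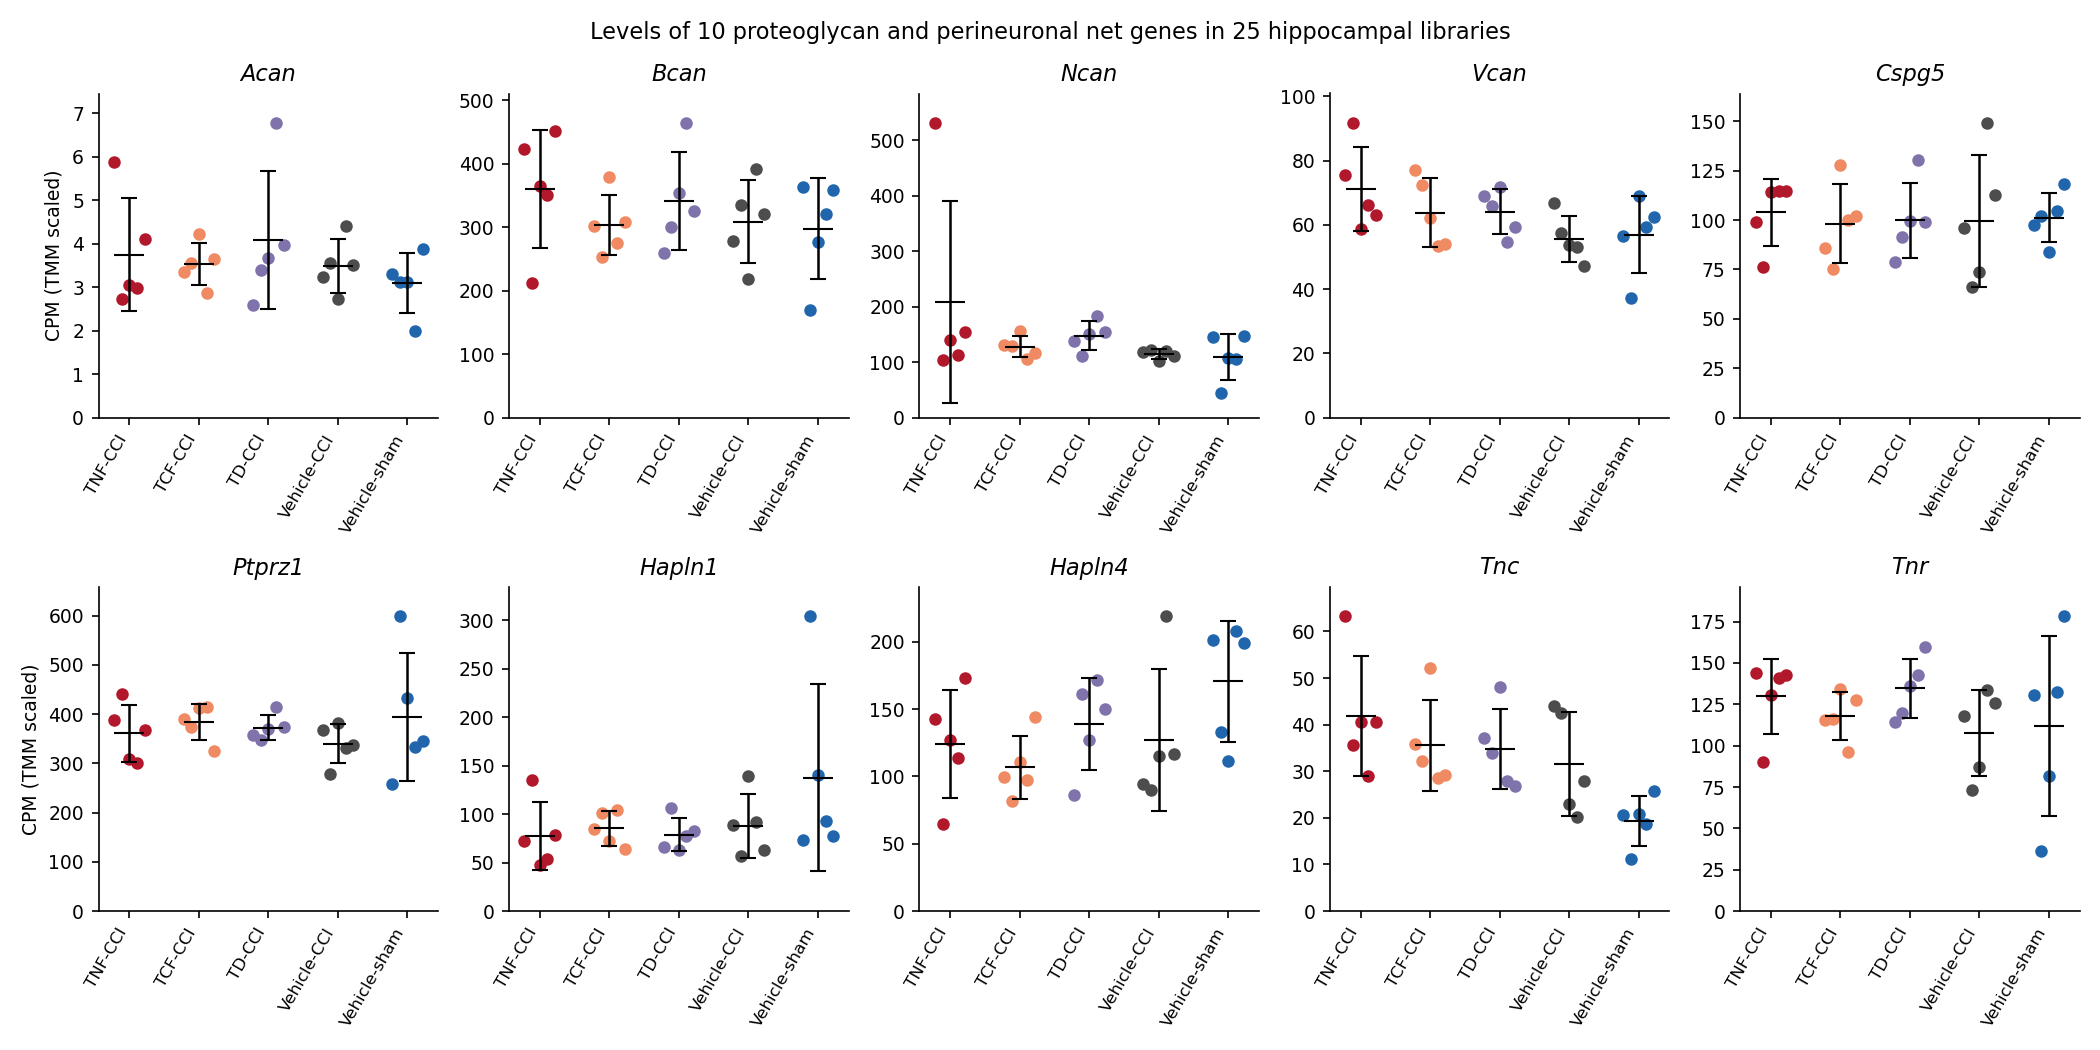
Levels of the 10 genes in CPM after TMM scaling (vertical axes from 0) in the 25 libraries; points are libraries, replicates 1 to 5 from left to right within a group, and black bars are the group mean ± SD (n = 5). Tnc sits between 26.9 and 63.2 CPM in the 3 supplemented groups, above the highest Vehicle-sham library at 25.8 CPM, and single libraries stand far from their group for Ncan (531 CPM in TNF-CCI 1) and Hapln1 (304 CPM in Vehicle-sham 2).

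Markers of reactive astrocytes and microglia had higher sums in most CCI libraries than in Vehicle-sham. Summed over 7 reactive astrocyte markers, levels ran from 2209 to 8353 CPM in TNF-CCI, 841 to 2921 CPM in TCF-CCI, 2292 to 3756 CPM in TD-CCI, 1092 to 3776 CPM in Vehicle-CCI and 835 to 1777 CPM in Vehicle-sham. Of those 7 markers 6 passed as higher when the 4 CCI groups were averaged, none was at 0, and the median difference was 1.33 on the log2 scale. The 7 microglial markers summed to 222 to 404 CPM in TNF-CCI, 133 to 291 CPM in TCF-CCI, 208 to 288 CPM in TD-CCI, 159 to 410.5 CPM in Vehicle-CCI and 101 to 149 CPM in Vehicle-sham, and 4 of the 7 were called higher. Among all tested genes 2.24% were called higher in that comparison. Without Vehicle-sham 2 edgeR called 0 of the 7 reactive astrocyte and 0 of the 7 microglial markers, with median differences of 1.25 and 0.97. Their part in the Tnc result was not tested.

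Across the 20 CCI libraries log2 Tnc followed log2 Cd68, a lysosomal gene of phagocytes, with Pearson's r of 0.68 and Spearman's rho of 0.67. The two-sided permutation p-values, adjusted over 20 relations of the 10 members with Gfap and Cd68, were 0.0184 and 0.0302. Without TCF-CCI 5 and Vehicle-CCI 4, the libraries farthest from the Cd68 median, r was 0.65. With each group centred on its own mean r was 0.72, but each group has 5 libraries, too few for a test of its own, and the relation was not seen in every group. In TD-CCI 1 to 5, Cd68 levels of 10.0, 5.70, 5.46, 4.53 and 8.26 CPM stood beside the Tnc levels given above, with the highest Tnc in TD-CCI 3, where Cd68 was the lowest but 1 of the group. Tnc was the 1 gene of the 10 for which both coefficients passed with either measure. With Gfap, the intermediate filament of astrocytes, Tnc had r of 0.60 (adjusted permutation p = 0.0265) and rho of 0.46 (adjusted permutation p = 0.162), and r was 0.47 without TNF-CCI 1 and TCF-CCI 5. With Gfap, Ncan had r of 0.63 (adjusted permutation p = 0.0232) and Bcan had r of 0.59 (adjusted permutation p = 0.0265), with rho of 0.52 and 0.54 (adjusted permutation p = 0.107 for both). Without the same 2 libraries r was 0.43 for Ncan and 0.62 for Bcan.

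**Figure D2:**
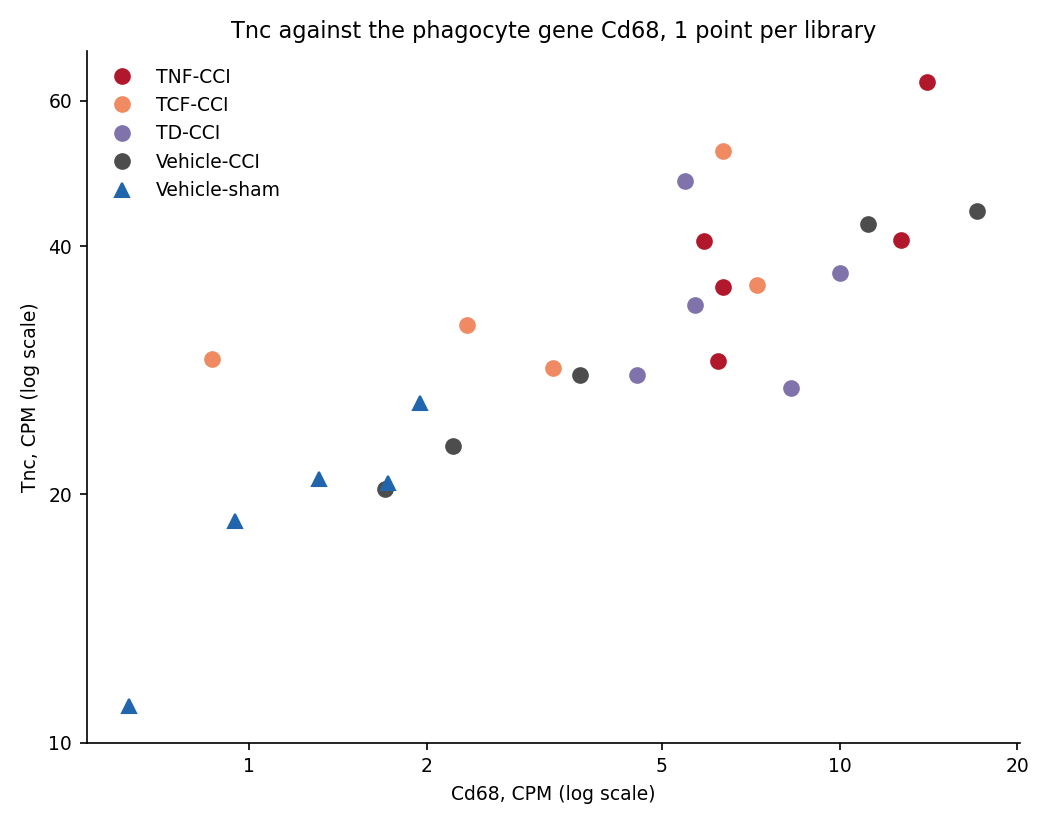
Tnc against Cd68, both in CPM on log axes, with 1 point per library (circles, CCI libraries; triangles, Vehicle-sham). Vehicle-sham libraries sit at the lower left, with Cd68 between 0.626 and 1.94 CPM and Tnc between 11.1 and 25.8 CPM, and the CCI libraries run from there to 17.1 CPM of Cd68 and 63.2 CPM of Tnc (r of 0.68 over the 20).

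Among the lecticans none passed the test in any comparison. Neurocan, made by neurons and astrocytes and shed into the matrix around lesions, had the widest spread. Ncan (chr16:19301969-19328436, plus strand, mRatBN7.2) had 531, 104, 141, 112 and 154 CPM in TNF-CCI, 131, 129, 157, 106 and 117 CPM in TCF-CCI, 138, 111, 150.2, 183 and 155 CPM in TD-CCI, 118, 121, 102, 120.5 and 110.4 CPM in Vehicle-CCI, and 145, 44.0, 107, 105 and 146 CPM in Vehicle-sham. The groups overlapped apart from TNF-CCI 1 at the top and Vehicle-sham 2 at the bottom. The Ncan difference in TNF-CCI over Vehicle-sham was 0.93 ± 0.34 (edgeR adjusted p = 0.120), and 0.22 without TNF-CCI 1. That library had an astrocyte marker sum of 11229.9 CPM over 8 genes, against 4901 to 8927 CPM in the other TNF-CCI libraries and at most 7680.0 CPM in the other groups, and the part of astrocytes in the Ncan value was not tested. Without TNF-CCI 2 in place of TNF-CCI 1, the Ncan difference was 1.11 and passed with an adjusted p of 0.0427. As a mean of all CCI groups Ncan differed from Vehicle-sham by 0.41 ± 0.27 (edgeR adjusted p = 0.372), and by 0.23 without Vehicle-sham 2.

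Brevican, the lectican most abundant in the adult brain, averaged 360.5 ± 92.8 CPM in TNF-CCI, 304 ± 47.6 CPM in TCF-CCI, 341 ± 77.3 CPM in TD-CCI, 309 ± 65.2 CPM in Vehicle-CCI and 298 ± 80.3 CPM in Vehicle-sham (SD, n = 5 each). Its mean difference over Vehicle-sham was 0.14 ± 0.17, and 0.02 without Vehicle-sham 2, whose Bcan level was 169 CPM. Versican, in the adult a product of oligodendrocyte precursors among others, averaged 71.1 ± 13.1, 63.8 ± 10.7, 64.1 ± 6.99 and 55.7 ± 7.198 CPM in TNF-CCI, TCF-CCI, TD-CCI and Vehicle-CCI, against 56.9 ± 12.0 CPM in Vehicle-sham. All 5 TNF-CCI libraries lay above the sham mean, but only 2 lay above every sham library, and the Vcan difference was 0.32 ± 0.16 (edgeR adjusted p = 0.253). Aggrecan, the core protein of the densest perineuronal nets, was the scarcest member. Acan averaged 3.75 ± 1.30, 3.53 ± 0.488, 4.08 ± 1.59 and 3.49 ± 0.612 CPM in the CCI groups in the same order, against 3.09 ± 0.69 CPM in Vehicle-sham. The highest Acan values were 6.78 CPM in TD-CCI 4 and 5.88 CPM in TNF-CCI 1, the libraries with the highest and the next highest sum of thalamic markers (394 and 224 CPM), whose part in the values was not tested. The single markers differed between the 2 libraries. Slc17a6 had 115 CPM in TD-CCI 4 but 5.02 CPM in TNF-CCI 1, below the 10.1 to 28.3 CPM of Vehicle-sham. Tcf7l2 had 92.4 and 20.1 CPM in the same order. TD-CCI 4 also had the highest sum of 8 parvalbumin interneuron markers, 417 CPM. The mean differences from Vehicle-sham were 0.26 ± 0.20 for Acan, and 0.12 without Vehicle-sham 4, and 0.16 ± 0.12 for Vcan, and 0.06 without Vehicle-sham 2.

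With all 25 libraries in the fit, the membrane proteoglycans Cspg5 and Ptprz1 had the smallest mean differences of the 10 members. Without Vehicle-sham 2 the Ptprz1 difference was larger in size than those of Bcan, Vcan and Tnr. Cspg5 encodes neuroglycan C, a transmembrane proteoglycan of neurons and glia, and averaged 104 ± 16.8, 98.2 ± 20.0, 99.8 ± 18.996 and 99.5 ± 33.3 CPM in TNF-CCI, TCF-CCI, TD-CCI and Vehicle-CCI, against 101 ± 12.5 CPM in Vehicle-sham. The 5 group means spanned 98.2 to 104 CPM, and the mean difference was -0.01 ± 0.15. Ptprz1 encodes a receptor phosphatase whose shed form is the matrix proteoglycan phosphacan. It averaged 361 ± 57.9, 383 ± 36.4, 373 ± 25.8 and 339.8 ± 39.9 CPM in the same groups, against 394 ± 130.1 CPM in Vehicle-sham, where Vehicle-sham 2 had 598 CPM. The Ptprz1 difference was -0.11 ± 0.14, and 0.11 without Vehicle-sham 2.

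Both link protein genes had lower means in every CCI group than in Vehicle-sham, and neither passed the test. Hapln1 encodes the link protein that ties lecticans to hyaluronan and is needed for nets to form. Hapln1 (chr2:20631640-20696388, plus strand, mRatBN7.2) had 72.4, 135, 47.8, 53.3 and 78.8 CPM in TNF-CCI, 84.7, 101, 72.2, 105 and 63.7 CPM in TCF-CCI, 65.7, 106, 63.0, 77.5 and 82.1 CPM in TD-CCI, 88.8, 56.4, 139, 91.8 and 62.8 CPM in Vehicle-CCI, and 73.1, 304, 140.1, 92.5 and 77.8 CPM in Vehicle-sham. The 2 sham libraries with high mitochondrial rRNA, Vehicle-sham 2 and 3, held the highest Hapln1 values of all 25 libraries, and the other 3 sham libraries lay within the range of the injured ones. The mean difference of the CCI groups was -0.74 ± 0.25 (edgeR adjusted p = 0.0707), then -0.20 without Vehicle-sham 2 and 0.04 without Vehicle-sham 2 and 3. It passed when TNF-CCI 2, Vehicle-CCI 3, Vehicle-sham 1 or Vehicle-sham 5 was left out, with adjusted p-values of 0.0313, 0.049, 0.0331 and 0.0385. Vehicle-CCI 3 and TNF-CCI 2, the injured libraries highest in Hapln1, also had the highest mitochondrial rRNA shares of the injured libraries, 9.89% and 10.9% of counts. Vehicle-CCI 3 had 3824 CPM summed over 5 choroid plexus markers, against at most 521 CPM in any other library. What part either trait had in the Hapln1 values was not tested.

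Hapln4, also called Bral2, is the link protein that partners brevican at inhibitory synapses and in nets. Hapln4 (chr16:19333106-19341243, minus strand, mRatBN7.2) had 143, 64.9, 127, 114 and 173 CPM in TNF-CCI, 99.5, 81.5, 111, 97.3 and 144 CPM in TCF-CCI, 86.0, 161, 127, 172 and 149.7 CPM in TD-CCI, 94.7, 90.2, 115, 219 and 116 CPM in Vehicle-CCI, and 201, 133, 111, 208 and 199 CPM in Vehicle-sham. Of the 5 sham libraries 3 lay between 199 and 208 CPM, a level reached in 1 injured library, Vehicle-CCI 4, and 17 of 20 injured libraries lay below the sham mean. The mean difference was -0.46 ± 0.20 (edgeR adjusted p = 0.149), -0.51 without Vehicle-sham 2 and -0.70 without Vehicle-sham 2 and 3. With limma voom and sample quality weights it was -0.65 and passed, with an adjusted p of 0.0348. Of 9 hippocampal neuron markers 2 were called lower in the averaged CCI groups (Neurod6 and Camk2a), and the median difference was -0.40. Their sums ran from 2155 to 4495 CPM in TNF-CCI, 2367 to 3511 CPM in TCF-CCI, 2244 to 3777 CPM in TD-CCI and 1807 to 5078 CPM in Vehicle-CCI, against 3028 to 6105 CPM in Vehicle-sham. Of 8 parvalbumin interneuron markers 3 passed as lower in the same comparison (Pvalb, Kcnc2 and Kcns3), with 21.7 ± 6.50 CPM of Pvalb in the 20 CCI libraries and 34.5 ± 12.0 CPM in Vehicle-sham (SD, n = 5). Vehicle-sham 2 had 55.8 CPM of Pvalb, against 27.1 to 31.7 CPM in the other sham libraries. The sums of the 8 ran from 144 to 245 CPM in TNF-CCI, 179 to 236 CPM in TCF-CCI, 192 to 417 CPM in TD-CCI and 156 to 256 CPM in Vehicle-CCI, against 221 to 343 CPM in Vehicle-sham. Among all tested genes 3.68% were called lower in that comparison. Without Vehicle-sham 2 edgeR called 0 of the 9 neuron and 0 of the 8 interneuron markers. The median differences were then -0.40 for the neuron markers, with 0 of 9 above 0, and -0.13 for the interneuron markers, with 2 of 8 above 0. The part of either cell type in the Hapln4 values was not tested.

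Tenascin-R, which crosslinks lecticans in perineuronal nets, did not pass the test in any comparison. Tnr had 144, 89.9, 131, 141 and 143 CPM in TNF-CCI, 115, 116, 134, 96.0 and 128 CPM in TCF-CCI, 115, 119.9, 136, 143 and 159.6 CPM in TD-CCI, 118, 73.1, 87.3, 134 and 126 CPM in Vehicle-CCI, and 130.3, 36.4, 81.9, 132 and 178 CPM in Vehicle-sham. Sham held both the highest and the lowest Tnr level of all libraries. The mean difference was 0.13 ± 0.21 (edgeR adjusted p = 0.746), and -0.07 without Vehicle-sham 2.

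**Figure D3:**
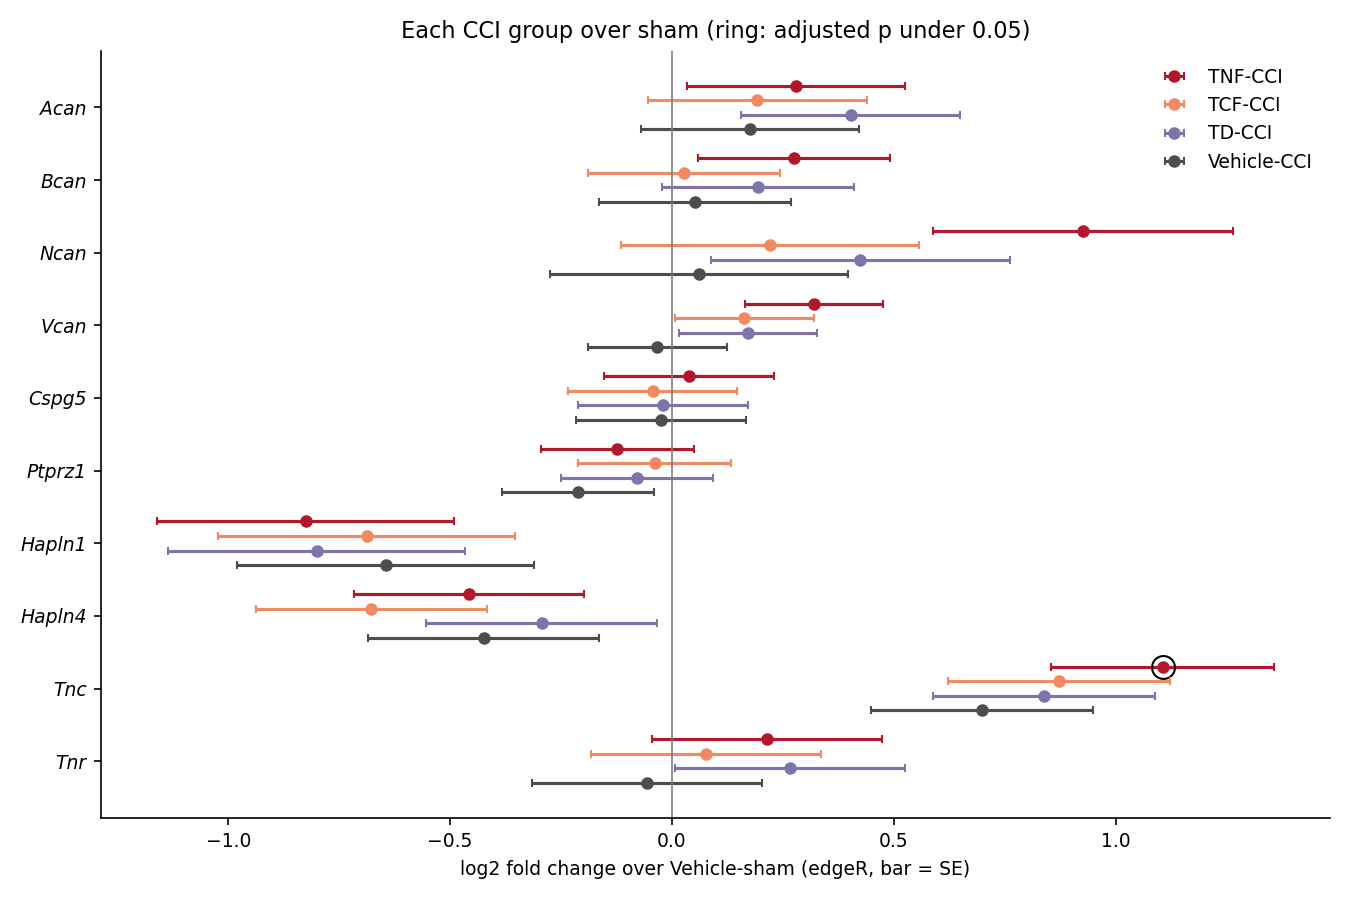
Log2 fold change of each member in the 4 CCI groups over Vehicle-sham (edgeR; bars are the SE), with a ring where the adjusted p is under 0.05. Tnc lies to the right of 0 in all 4 groups, from 0.70 to 1.11, and carries the 1 ring, while with all 25 libraries in the fit Hapln1 and Hapln4 lie to the left of 0 in all 4 and carry none.

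**Figure D4:**
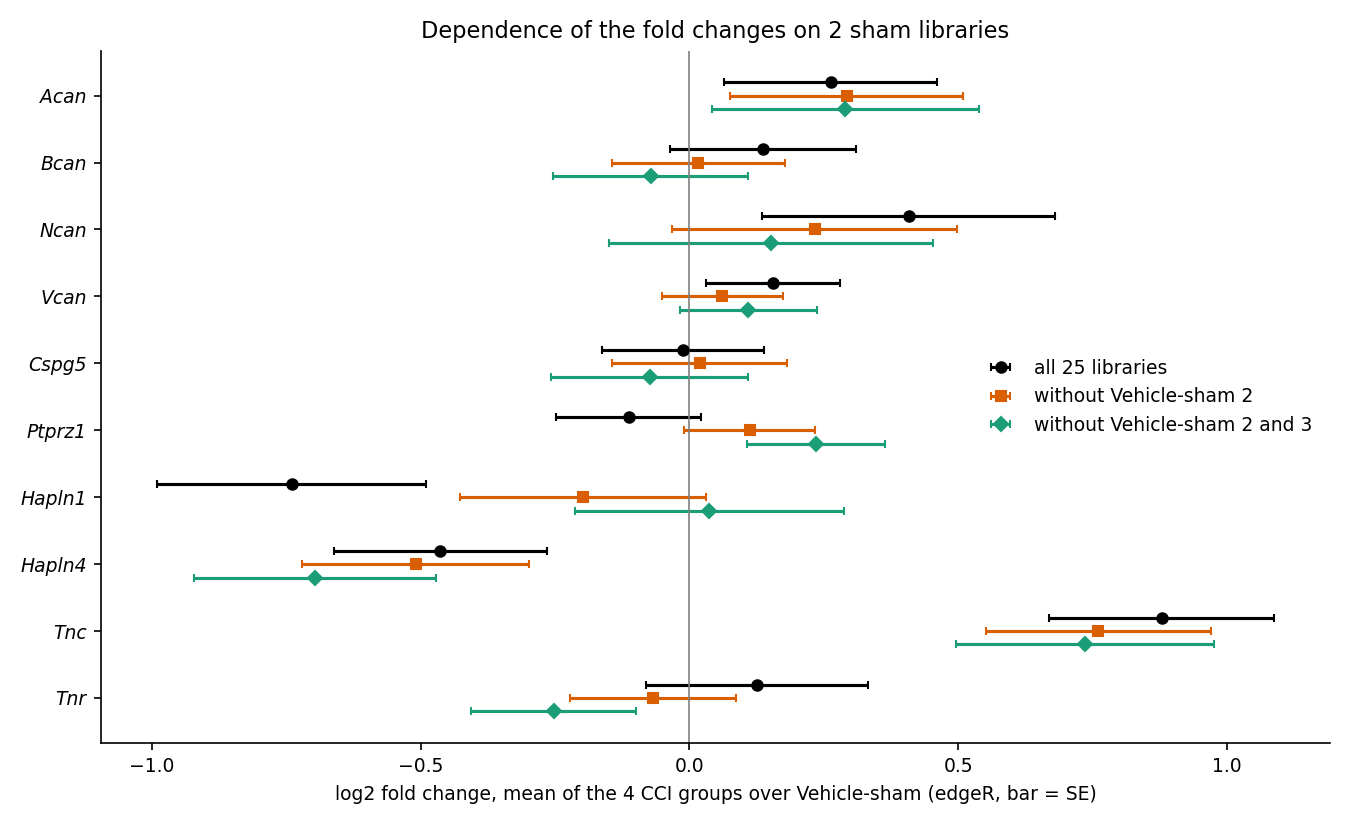
Log2 fold change of each member, CCI groups averaged, over Vehicle-sham (edgeR; bars are the SE) from all 25 libraries, without Vehicle-sham 2, and without Vehicle-sham 2 and 3. Tnc lies at 0.88, 0.76 and 0.74 and Hapln1 at -0.74, -0.20 and 0.04.

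No member passed the test between a supplemented group and Vehicle-CCI. For TNF-CCI, TCF-CCI and TD-CCI over Vehicle-CCI edgeR called 0 of 10 members and 0% of all tested genes in each comparison. At an unadjusted p under 0.05 there were 2 members in TNF-CCI and 0 in the other supplement groups, beside 3.46%, 1.44% and 1.75% of all genes, and DESeq2 called 0 members. The 2 were Ncan, at 0.87 ± 0.34 (edgeR adjusted p = 1.00) and 0.16 without TNF-CCI 1, and Vcan, at 0.35 ± 0.16 (edgeR adjusted p = 1.00) and 0.33 without that library. Tnc differed from Vehicle-CCI by 0.41 ± 0.25 in TNF-CCI (0.21 without TNF-CCI 1), 0.17 ± 0.25 in TCF-CCI (-0.01 without TCF-CCI 3) and 0.14 ± 0.25 in TD-CCI, and Hapln4 by -0.03 ± 0.26, -0.25 ± 0.26 (0.05 without Vehicle-CCI 4) and 0.13 ± 0.26. The medians over the 10 members were 0.16, 0.07 and 0.14, against -0.0033, -0.03 and -0.01 over all tested genes. Between the supplements edgeR called 0 members and 0% of all genes in each of the 3 pairs, with 1 member, Ncan in TNF-CCI over TCF-CCI (0.71 ± 0.34), at an unadjusted p under 0.05, beside 5.12% of all genes. These comparisons share libraries with each other and with those over Vehicle-sham.

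By mean level TNF-CCI came first for Bcan, Ncan, Vcan, Cspg5 and Tnc, TD-CCI for Acan and Tnr, and Vehicle-sham for Ptprz1, Hapln1 and Hapln4. Vehicle-sham came last for Acan, Bcan, Ncan and Tnc, Vehicle-CCI for Vcan, Ptprz1 and Tnr, TCF-CCI for Cspg5 and Hapln4, and TNF-CCI for Hapln1. Of 40 pairs of groups next to each other in these orders edgeR called 0, and 1 had an unadjusted p under 0.05, Tnc in Vehicle-CCI over Vehicle-sham. Over the 10 members the median log2 difference from Vehicle-sham was 0.24 in TNF-CCI, 0.05 in TCF-CCI, 0.18 in TD-CCI and -0.03 in Vehicle-CCI, against 0.0031 to 0.014 over all tested genes.

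Per length of exon, the levels in Vehicle-sham ran from Bcan at 65.8 ± 17.7 CPM per kb (SD, n = 5) to Acan at 0.373 ± 0.0833 CPM per kb. Next to Bcan came Cspg5 at 46.3 ± 5.70, Hapln4 at 46.2 ± 12.2 and Ptprz1 at 39.2 ± 12.97 CPM per kb, followed by Hapln1 at 26.0 ± 18.3 and Ncan at 21.1 ± 8.03 CPM per kb. Tnr had 8.98 ± 4.35, Vcan 4.60 ± 0.972 and Tnc 2.55 ± 0.702 CPM per kb. From Bcan (37.3 to 80.4 CPM per kb) down to Tnc (1.46 to 3.39 CPM per kb), each gene's range overlapped that of the next. Acan lay apart, at no more than 0.470 CPM per kb. Tnc had 5.49 ± 1.69 CPM per kb in TNF-CCI, where Vcan had 5.75 ± 1.06 CPM per kb.

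The lectican and link protein genes lie in neighbouring pairs on the rat chromosomes (mRatBN7.2), with no other gene between the members of a pair. Ncan and Hapln4 are 4.67 kb apart on chromosome 16 and Vcan and Hapln1 are 65.3 kb apart on chromosome 2, each pair on opposite strands. In the averaged CCI groups over Vehicle-sham the lectican lay above 0 and the link protein below 0 in both pairs, at 0.41 and -0.46 for Ncan and Hapln4 and at 0.16 and -0.74 for Vcan and Hapln1, none of them called, while Hapln1 lay at 0.04 without Vehicle-sham 2 and 3. Bcan lies 21.2 kb from Hapln2 and Acan 2.05 kb from Hapln3, whose differences of -0.05 ± 0.25 and 0.32 ± 0.23 were looked up after their values were seen.

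Some pairs of members varied together within the 20 CCI libraries. Of 45 pairs of members 13 passed with both Pearson's r and Spearman's rho (two-sided permutation, adjusted over the 45), and all 13 were positive. The share of passing pairs among all genes was not computed, so the count does not set the members apart from other genes. Bcan and Hapln1 ran in opposite directions and passed with r alone (r of -0.57, rho of -0.52, adjusted permutation p = 0.0299 and 0.0614), but r was -0.28 without TNF-CCI 2 and Vehicle-CCI 3. Ncan with Tnc (r of 0.59) and Acan with Cspg5 (r of 0.52) also passed with r alone, outside the 13. Bcan and Acan had r of 0.79 and rho of 0.80 (adjusted permutation p = 0.0027 for both), and r of 0.73 without the 2 libraries farthest in Acan, TD-CCI 4 and TNF-CCI 1. Bcan also paired with Cspg5 (r of 0.73, rho of 0.75), Hapln4 (0.72 and 0.69), Tnr (0.65 and 0.78) and Ncan (0.56 and 0.71), with adjusted permutation p-values of 0.0027 to 0.016. Without TNF-CCI 2 and Vehicle-CCI 3 these r values were 0.65, 0.71, 0.48 and 0.52. Tnr paired with Cspg5 (r of 0.73, rho of 0.69) and Hapln4 (0.63 and 0.71), and r was 0.69 and 0.59 without the 2 libraries farthest in each of these genes. The remaining pairs were Cspg5 with Hapln4 (r of 0.71) and Acan with Ncan (0.70), Hapln4 (0.62) and Tnr (0.54), which without 2 libraries were 0.61, 0.54, 0.64 and 0.52. Centred on the group means, r of the 13 pairs was 0.42 to 0.80. Hapln1 paired with Ptprz1 alone, with r of 0.65 and rho of 0.59 (adjusted permutation p = 0.0108 and 0.022), and r of 0.55 without Vehicle-CCI 2 and TNF-CCI 4. Tnc paired with Vcan alone, with r of 0.53 and rho of 0.59 (adjusted permutation p = 0.0472 and 0.022), and r of 0.62 without TNF-CCI 2 and Vehicle-CCI 5. These values share the library, its depth and its mix of cells.

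Over all 25 libraries and the 16897 genes with a mean of at least 1 CPM, the gene most like Tnc by rank of log2 CPM was Adamts9, a protease that cuts lecticans (Spearman's rho of 0.93, and 0.92 without Vehicle-sham 2), followed by Scamp2 (0.91). Hapln4 was most like Camk2b (0.97), the beta subunit of a kinase of synapses, and Cspg5 most like Aldoc (0.95), an astrocyte enzyme. For the other members the highest rho was 0.93 for Bcan (LOC100294508), 0.93 for Tnr (Snrnp200), 0.92 for Ncan (Khsrp), 0.88 for Hapln1 (Alg13), 0.84 for Ptprz1 (Cyyr1), 0.83 for Vcan (Atf7) and 0.83 for Acan (Zc3h18). These are the highest of many coefficients, and are given as a description without a test.

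Around these members, some genes that cut or bind the matrix were called higher over Vehicle-sham in TNF-CCI or in the averaged CCI groups. Genes that build chondroitin chains did not pass the test in either direction. Of 11 tested proteases that cut lecticans and their inhibitors, 3 were called higher in TNF-CCI over Vehicle-sham (Adamts9, Mmp2 and Timp1) and 3 in the averaged CCI groups (Adamts1, Adamts9 and Mmp2), none was called lower, and the list medians were 0.64 in both, against 0.01 over all tested genes. Among all tested genes 1.71% were called higher in TNF-CCI and 2.24% in the mean, which applies to each list below as well. The lists were chosen with earlier results of these data known, so these counts and medians do not set a list apart from other genes. Adamts9 averaged 23.3 ± 6.05 CPM in the 20 CCI libraries and 12.95 ± 5.08 CPM in the 5 Vehicle-sham libraries (SD), a difference of 0.83 ± 0.22 (edgeR adjusted p = 0.0338) with 17 of 20 libraries above every sham library. Mmp2, a gelatinase, averaged 5.29 ± 1.44 CPM in CCI and 2.70 ± 0.772 CPM in sham libraries, a difference of 0.95 ± 0.22 (edgeR adjusted p = 0.024). Timp1, an inhibitor of matrix metalloproteases, ran from 6.47 to 62.3 CPM in TNF-CCI against 0.683 to 4.36 CPM in Vehicle-sham, a difference of 2.70 ± 0.54 (edgeR adjusted p = 0.0198). Its highest library was TNF-CCI 1, without which the Timp1 difference was 1.51 (adjusted p = 0.0775).

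Of 15 genes of hyaluronan metabolism and binding 1 was called higher in TNF-CCI and in the mean, Cd44, the hyaluronan receptor that is also in the reactive astrocyte list. Cd44 averaged 31.3 ± 12.7 CPM in CCI and 15.7 ± 6.40 CPM in sham libraries, a difference of 0.96 ± 0.28 (edgeR adjusted p = 0.0452). The hyaluronan list medians were 0.00 in TNF-CCI and 0.04 in the mean. Of 12 other proteoglycans, Sdc1 and Sdc4 were called higher in TNF-CCI and Fmod and Sdc4 in the mean, with list medians of 0.64 and 0.48. Sdc4, a cell surface heparan sulfate proteoglycan, averaged 64.9 ± 14.4 CPM in CCI and 44.3 ± 6.18 CPM in sham libraries, a difference of 0.54 ± 0.15 (edgeR adjusted p = 0.0384). Sdc1 had 13.4 CPM in TNF-CCI 1 and a median of 1.03 CPM in its group, and its difference of 2.85 ± 0.74 was 0.82 without that library.

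Of 21 tested genes of chondroitin chain synthesis and sulfation 0 were called by edgeR in any of the 4 CCI groups or their mean over Vehicle-sham. In the mean the list median was -0.02, 5 had an unadjusted p under 0.05, beside 24.7% of all tested genes, and DESeq2 called 2, where it called 2338 of 27536 genes. The smallest p-values there were those of B3gat3, which completes the linker on which the chain is built (-0.53 ± 0.16, adjusted p = 0.0529), and Dsel, an epimerase-like gene (-0.54 ± 0.17, adjusted p = 0.0565), and without Vehicle-sham 2 the values were -0.29 for each. Of 19 receptors, ligands and partners edgeR called 0, with a median of 0.07 in the mean, 4 at an unadjusted p under 0.05 (24.7% of all genes) and 1 called by DESeq2. Ptn, the ligand of the Ptprz1 product, differed by -0.64 ± 0.23 (edgeR adjusted p = 0.0864) and Ptprf, a receptor phosphatase, by 0.53 ± 0.19 (edgeR adjusted p = 0.0868). Without Vehicle-sham 2 they were -0.22 (adjusted p = 0.684) and 0.38 (adjusted p = 0.284). Over the 5 lists together, 78 genes tested, edgeR called 0 in TCF-CCI, TD-CCI and Vehicle-CCI over Vehicle-sham, with 11, 16 and 10 at an unadjusted p under 0.05, beside 18.0%, 16.5% and 12.7% of all genes, and 0, 2 and 0 called by DESeq2. In TNF-CCI, TCF-CCI and TD-CCI over Vehicle-CCI edgeR and DESeq2 called 0, with 4, 3 and 1 at an unadjusted p under 0.05, beside 3.46%, 1.44% and 1.75% of all genes.

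The calls in these lists were sensitive to single libraries. Of the 6 calls in TNF-CCI over Vehicle-sham, all 6 were lost without TNF-CCI 1, without TNF-CCI 5 or without Vehicle-sham 4, 5 without Vehicle-sham 3 and 2 without Vehicle-sham 2. Of the 6 in the averaged CCI groups, all 6 were lost without Vehicle-sham 2 and 5 without Vehicle-sham 3 or without Vehicle-sham 4. Without Vehicle-sham 2 the averaged differences were 1.24 for Cd44, 0.65 for Adamts9, 0.85 for Mmp2 and 0.55 for Sdc4. Mmp2 kept its call in 24 of 25 fits that left out 1 library and Adamts9 in 22 of 25, while Cd44 and Fmod kept theirs in 9.

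**Figure D5:**
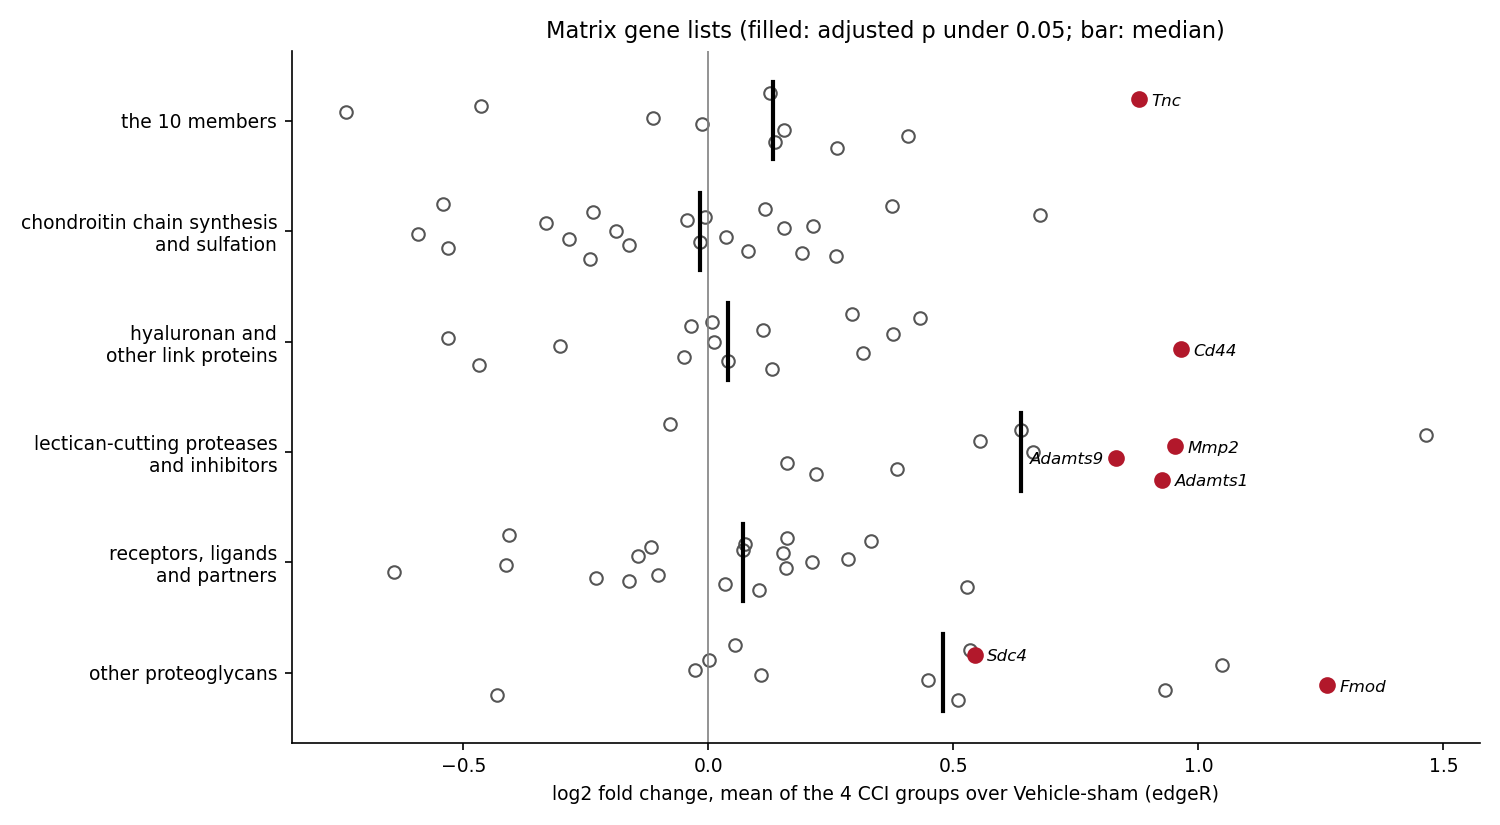
Log2 fold change of the averaged CCI groups over Vehicle-sham (edgeR) for the 10 members and the 5 gene lists, 1 circle per gene, filled and named where the adjusted p is under 0.05, with a bar at the list median. The medians of the protease list (0.64) and of the other proteoglycans (0.48) lie to the right of the members' median (0.13), and the chain synthesis list has its median at -0.02 and no filled circle.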

How the data were processed

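RNA-seq counts per gene from 25 rat hippocampal libraries were analysed. The deposited table held the authors' read counts, whole numbers with no normalization, with gene positions on mRatBN7.2. STAR, featureCounts, Salmon and DESeq2 are listed in the submitters' processing notes, with no version or role; the strand setting is not given in the sources used here. For each CCI group the authors also deposited a log2 fold change over their control and raw and adjusted p-values, per the file headers.

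Of 34322 genes, 7 with empty cells were left out. Counts were tested with edgeR 4.0.16 in R 4.3.3 (TMM factors, filterByExpr by group, robust quasi-likelihood F test), with all 25 libraries in 1 fit and a mean per group. P-values were adjusted by Benjamini-Hochberg over the 21064 genes tested, with a threshold of 0.05. CPM values, their SD over libraries, and log2 fold changes with SE were computed from these counts, the first-named group over the second. Within a group, any 2 libraries differed 25.7 to 776 times more than counting error allows (chi-square per degree of freedom), so the spread between libraries set the precision. Correlations used log2(CPM + 0.1) and 100000 permutations.

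The members and gene lists were chosen with earlier results of these data known; 1 gene of the hyaluronan list is not reported here. All 10 members are named whatever their values; list genes are named where called, or the 2 of smallest p in the mean of the 4 CCI groups where none was. On simulated counts for TNF-CCI over Vehicle-sham (20872 genes), 62 of 100 genes changed by 1 on the log2 scale and 97 of 100 changed by 2 were called. Each simulated count was drawn independently, with no library set apart from its group, and only genes above a minimum level were changed. These shares need not hold for the real libraries. Alternatives were DESeq2 size factors, no filter, a filter of 1 CPM in 5 libraries, a replicate block, DESeq2 1.42.0, voom weights per sample in limma 3.58.1, a fit restricted to the groups compared, leaving out each library or both Vehicle-sham 2 and 3, and a covariate for mitochondrial rRNA. Promoter sequences came from RefSeq, build GRCr8; Ptprz1 and Cspg5 had no entry.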

Additional observations from a re-analysis of the deposited data

Results flagged for a closer look

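Of 50 groups of 5 libraries examined for the 10 members, 3 held a library far from the other 4 by Dixon's test; chance marks about 1 group in 20. Ncan was at 531 CPM in TNF-CCI 1, against 104 to 154 CPM in the other TNF-CCI libraries. Hapln4 was at 219 CPM in Vehicle-CCI 4, against 90.2 to 116 CPM in the other Vehicle-CCI libraries. Vehicle-CCI 4 also had the highest sums of hippocampal neuron and mature oligodendrocyte markers in its group, 5078 and 26046 CPM, whose part in the Hapln4 value was not tested. Tnr was at 89.9 CPM in TNF-CCI 2, against 131 to 144 CPM in the other TNF-CCI libraries. TNF-CCI 2 had the lowest sum of hippocampal neuron markers in its group, 2155 CPM. It also had 10.9% of counts on mitochondrial rRNA, against 2.95 to 4.17% in the other TNF-CCI libraries. The part of either in the Tnr value was not tested.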

How the results depend on the processing

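Tnc lay above Vehicle-sham in every CCI group and in their mean under every alternative, while its calls depended on the setting. Over the 10 members and the 8 comparisons over Vehicle-sham or Vehicle-CCI, 649 of 720 log2 fold changes under settings other than leaving out 1 library kept their sign and their side of the threshold, and 63 changed sign; with 1 library left out these were 1921 and 69 of 2000. The cause was not tested for any of these changes.

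Members called in TNF-CCI over Vehicle-sham were 0 in place of 1 without Vehicle-sham 2 and 3 or with the mitochondrial rRNA covariate, and 0 to 3 with 1 library left out. In the mean of the 4 CCI groups they were 0 under the same settings, 2 (Tnc and Hapln4) with limma voom, and 0 to 2 with 1 library left out. In TCF-CCI over Vehicle-sham they were 1 (Tnc) with DESeq2 and 2 (Tnc and Hapln4) with limma voom, against 0. In the other comparisons they were 0 under every alternative, with 1 library left out 0 to 0.

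Of all tested genes, 542 were called in TNF-CCI over Vehicle-sham, against 1370 with DESeq2, 946 with limma voom, 197 with only the groups compared, 0 without Vehicle-sham 2 and 3, and 103 with the covariate. The mean of the 4 CCI groups had 1248, against 2070 without a filter, 2338 with DESeq2, 0 without Vehicle-sham 2 and 3, and 168 with the covariate. TCF-CCI over Vehicle-sham had 3, against 250 with DESeq2, 388 with limma voom, 1 with only the groups compared, and 0 without a filter, without Vehicle-sham 2 and 3 or with the covariate. TD-CCI over Vehicle-sham had 0, against 244 with DESeq2, 2 with limma voom, 139 with only the groups compared, and 1 without a filter. Vehicle-CCI over Vehicle-sham had 0, against 245 with DESeq2. DESeq2 called 1 gene in TNF-CCI and 1 in TD-CCI over Vehicle-CCI. With 1 library left out the counts were 0 to 1563 in TNF-CCI, 0 to 6 in TCF-CCI, 0 to 4 in TD-CCI, 0 to 368 in Vehicle-CCI and 14 to 2117 in the mean, and 0 to 0 over Vehicle-CCI. Over the 27536 genes that DESeq2 tested, the median log2 fold change in the mean of the 4 CCI groups was -0.10.

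Libraries with the same number were not treated as pairs, since the labels do not say that they share an animal or a day. The mean correlation of their deviations was -0.03 to 0.21 per number, and 11 of 25 libraries matched their own number best. The number of matches that chance would give was not computed, and whether equal numbers share a source was not tested. With the replicate block 1190 genes were called in TNF-CCI, 45 in TD-CCI and 1 in Vehicle-CCI over Vehicle-sham, and no member call changed.

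Members that changed sign over Vehicle-sham were not called under the setting or without it. With limma voom Ptprz1 was 0.045 in TNF-CCI, 0.23 in TCF-CCI, 0.16 in TD-CCI, 0.065 in Vehicle-CCI and 0.13 in the 4-group mean, and Bcan was -0.089 in TCF-CCI, -0.013 in TD-CCI, -0.14 in Vehicle-CCI and -0.015 in the 4-group mean. There Tnr was -0.12 in TCF-CCI and -0.068 in the 4-group mean, and Ncan was -0.091 in Vehicle-CCI. Without Vehicle-sham 2 and 3 Cspg5 was -0.022 in TNF-CCI, and Ptprz1 was 0.23 in TNF-CCI, 0.31 in TCF-CCI, 0.27 in TD-CCI, 0.13 in Vehicle-CCI and 0.24 in the 4-group mean. There Tnr was -0.16 in TNF-CCI, -0.30 in TCF-CCI, -0.11 in TD-CCI and -0.25 in the 4-group mean, and Bcan was -0.18 in TCF-CCI, -0.011 in TD-CCI, -0.16 in Vehicle-CCI and -0.072 in the 4-group mean. There Ncan was -0.036 in TCF-CCI and -0.20 in Vehicle-CCI, and Hapln1 was 0.088 in TCF-CCI, 0.13 in Vehicle-CCI and 0.037 in the 4-group mean. With the mitochondrial rRNA covariate Bcan was -0.077 in TNF-CCI, -0.15 in TCF-CCI, -0.036 in TD-CCI, -0.11 in Vehicle-CCI and -0.094 in the 4-group mean, and Cspg5 was -0.11 in TNF-CCI. There Ptprz1 was 0.18 in TNF-CCI, 0.17 in TCF-CCI, 0.17 in TD-CCI and 0.12 in the 4-group mean, and Tnr was -0.23 in TNF-CCI, -0.10 in TCF-CCI, -0.0052 in TD-CCI and -0.14 in the 4-group mean. There Ncan was -0.11 in Vehicle-CCI. With the replicate block Tnr was 0.011 in Vehicle-CCI. Without a filter Cspg5 was 0.012 in the 4-group mean. With 1 library left out, the log2 fold changes over Vehicle-sham that changed sign had these ranges. Cspg5 ran from -0.021 to 0.13 in TNF-CCI, -0.16 to 0.047 in TCF-CCI, -0.13 to 0.056 in TD-CCI, -0.23 to 0.094 in Vehicle-CCI and -0.071 to 0.052 in the 4-group mean. Ptprz1 ran from -0.24 to 0.10 in TNF-CCI, -0.16 to 0.20 in TCF-CCI, -0.20 to 0.14 in TD-CCI, -0.33 to 0.011 in Vehicle-CCI and -0.23 to 0.11 in the 4-group mean. Bcan ran from -0.084 to 0.11 in TCF-CCI and -0.072 to 0.16 in Vehicle-CCI. Tnr ran from -0.11 to 0.31 in TCF-CCI, -0.25 to 0.18 in Vehicle-CCI and -0.067 to 0.36 in the 4-group mean. Ncan ran from -0.12 to 0.19 in Vehicle-CCI. Vcan ran from -0.13 to 0.048 in Vehicle-CCI.

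Over Vehicle-CCI the sign changes were likewise between values that were not called. With limma voom Ptprz1 was -0.020 in TNF-CCI, and Hapln4 was 0.15 in TNF-CCI. There Bcan was 0.050 in TCF-CCI, and Cspg5 was 0.020 in TCF-CCI and -0.032 in TD-CCI. There Hapln1 was 0.022 in TCF-CCI. With the mitochondrial rRNA covariate Cspg5 was -0.0052 in TNF-CCI and -0.020 in TD-CCI, and Hapln1 was 0.056 in TNF-CCI, 0.0030 in TCF-CCI and 0.00010 in TD-CCI. There Tnr was -0.010 in TNF-CCI. With the replicate block Cspg5 was 0.010 in TCF-CCI. With DESeq2 Cspg5 was -0.0015 in TD-CCI. With DESeq2 size factors Cspg5 was -0.0018 in TD-CCI. With 1 library left out there were ranges across 0 in these genes. Acan ran from -0.12 to 0.21 in TNF-CCI, -0.061 to 0.13 in TCF-CCI and -0.036 to 0.35 in TD-CCI. Cspg5 ran from -0.053 to 0.26 in TNF-CCI, -0.14 to 0.19 in TCF-CCI and -0.11 to 0.19 in TD-CCI. Hapln1 ran from -0.46 to 0.048 in TNF-CCI, -0.17 to 0.19 in TCF-CCI and -0.28 to 0.073 in TD-CCI. Hapln4 ran from -0.18 to 0.26 in TNF-CCI and -0.39 to 0.050 in TCF-CCI. Bcan ran from -0.13 to 0.089 in TCF-CCI. Tnc ran from -0.0065 to 0.32 in TCF-CCI and -0.0053 to 0.29 in TD-CCI.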
